A study of Drosophila melanogaster with 8 samples.

Results

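Map205, tut, sturkopf and CG32373 are 4 of the 15682 genes counted in larval eye discs of 4 Drosophila melanogaster stocks, and they were chosen by their measured RNA counts, which separated the stocks RMCE-2 and RMCE-1 in every check of an earlier analysis of the same libraries. Every comparison that holds an RMCE library is given for them as a description with no test. The comparison of mir-11 KO with Canton S holds no such library and was tested. Its SEs and p-values are not free of the choice, since the spread was estimated over all 8 libraries. All 4 genes passed the filter on low counts that left 11068 genes for testing. A gene that is high in only some stocks passes that filter through those stocks.

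The discs came from third-instar larvae raised at 25 °C, with 2 libraries labelled biological replicates per stock and 30 to 50 discs pooled in each. RMCE-2 and RMCE-1 are labelled as stocks of the mir-11 and mir-998 locus. RMCE is the usual short form of recombinase-mediated cassette exchange, a swap of a DNA cassette at a marked place in the genome. Which cassettes they carry is not given in the sources here. The stock labelled mir-11 KO(w-), called mir-11 KO below, is a knockout of mir-11 that carries the mark w-, and Canton S is a wild-type laboratory strain. No treatment or agent is labelled, and strain background cannot be told apart from the labelled edits. The animals or crosses behind the replicates are not described, so p-values measure the spread between these samples. Pooled discs are a bulk sample, in which fewer cells of a type and less RNA per cell cannot be told apart.

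The products of these genes work in different parts of the cell. Map205 encodes a microtubule-associated protein of the fly that binds Polo, a mitotic kinase, and holds it on interphase microtubules. tut, or tumorous testis, encodes an RNA-binding protein that acts with Bam and Bgcn in the male germline to repress mei-P26 and so end the divisions of transit-amplifying cells. sturkopf encodes a protein of the hydrolase fold found on lipid droplets, the cell's stores of neutral fat.

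mir-11 had 0 to 2 assigned reads per library, too few to check the knockout label. Total counts per library ran from 11929158 to 19670470, and levels are given as CPM, the read counts of a library scaled to a common total. All 13 eye disc markers listed, such as eya, so and elav, were detected in every library, and their summed level ran from 1393 to 1594 CPM. RMCE-1 replicate 2 stood apart with 9149 CPM of 8 fat body transcripts and 5009 CPM of the Hsp70 and Hsp68 genes, against medians over the 8 libraries of 583 and 51.4 CPM. Salivary gland markers summed to 4101 CPM in that library and to 1709 and 1012 CPM in Canton S, against 167 to 334 CPM in the other 5. RMCE-2 replicate 1 had 835 CPM of the Hsp70 and Hsp68 genes. RMCE-2 replicate 2 had 137 CPM of them and 2246 CPM of the fat body transcripts. Muscle markers summed to between 6334 and 9774 CPM over the libraries. Hemocyte markers summed to 368 and 361 CPM in RMCE-2, 498 and 595 CPM in RMCE-1, 489 and 577 CPM in mir-11 KO and 616 and 876 CPM in Canton S. The median log2 fold change of these 9 markers was -0.56 for RMCE-2 against RMCE-1 and -1.2 for RMCE-2 against Canton S. Over all tested genes it was -0.014 and 0.00069. Of the 9, the peroxidasin gene Pxn was called lower in RMCE-2 than in RMCE-1 (log2 fold change -1.17 with SE 0.16, edgeR adjusted p = 0.0252), where 0.741% of all tested genes were called lower. This call of Pxn did not hold without RMCE-1 replicate 2 or any 1 of the RMCE-2 and mir-11 KO libraries, at adjusted p up to 0.141. Canton S replicate 1 stood apart with 382 CPM of gut transcripts, against a median of 8.44 CPM. The 21 testis marker transcripts matched in the tables summed to 70.5 CPM in that library and to between 28.6 and 34.5 CPM in the other 7, with 1 to 11 of them at 0 reads per library.

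**Figure D1:**
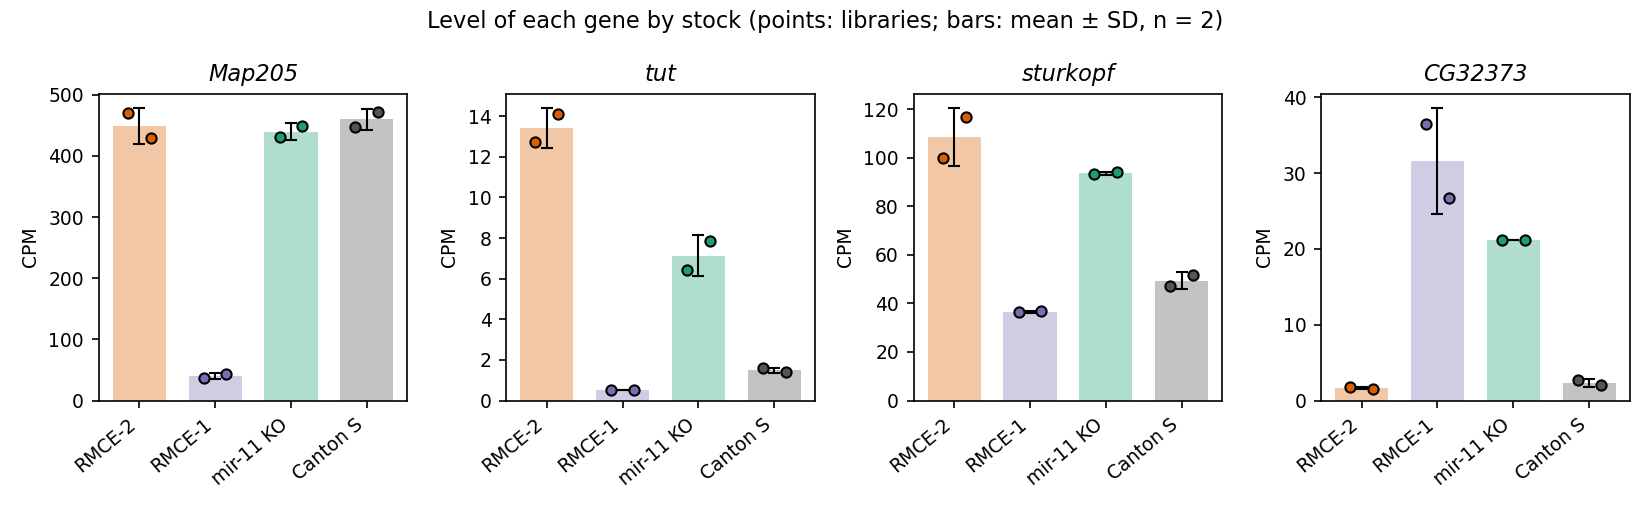
Level of each gene in CPM (linear axis from 0) in RMCE-2, RMCE-1, mir-11 KO and Canton S. Points are single libraries and bars with whiskers are the mean ± SD of 2 libraries. Map205 is low in RMCE-1 alone (40.5 CPM on average), while tut, sturkopf and CG32373 differ between most stocks.

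Map205 (FBgn0002645) was low in RMCE-1 and at one common level in the other 3 stocks, as the plot of levels by stock shows. It had 469.5 and 428.5 CPM in the RMCE-2 libraries, 37.1 and 43.9 CPM in RMCE-1, 430.0 and 449 CPM in mir-11 KO and 448 and 471 CPM in Canton S. Both RMCE-1 libraries lay far below the other 6, and the libraries of RMCE-2, mir-11 KO and Canton S overlapped. The stock means were 449 ± 29.0 CPM in RMCE-2, 40.5 ± 4.8 in RMCE-1, 439.5 ± 13.4 in mir-11 KO and 459.5 ± 16.8 in Canton S (SD, n = 2 each). These rest on 6122 and 7681 reads in RMCE-2 and on 579 and 512 reads in RMCE-1, so the low level was still well counted. The log2 fold change was 3.47 (SE 0.10) for RMCE-2 against RMCE-1, an 11.1-fold difference. RMCE-1 against mir-11 KO gave -3.44 (SE 0.10) and RMCE-1 against Canton S gave -3.50 (SE 0.10), and these comparisons share the RMCE-1 libraries. RMCE-2 differed by 0.03 (SE 0.09) from mir-11 KO and by -0.03 (SE 0.09) from Canton S. Of the ordered stock means, Canton S, RMCE-2 and mir-11 KO were neighbours whose gaps of 10.4 and 9.51 CPM lay within their SDs.

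The RMCE-1 libraries that gave these low values differed widely from each other in other transcripts. Their fat body markers summed to 66.5 and 9149 CPM and their salivary gland markers to 167 and 4101 CPM, while Map205 stood at 37.1 and 43.9 CPM. The part of such transcripts in the level of Map205 was not tested.

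tut (FBgn0052364) ranged more widely than the other 3, with 26.1-fold between its highest and lowest stock. It had 12.7 and 14.1 CPM in RMCE-2, 0.513 and 0.515 CPM in RMCE-1, 6.42 and 7.84 CPM in mir-11 KO and 1.58 and 1.40 CPM in Canton S. The libraries of no pair of stocks overlapped, and RMCE-1 lay below every other library. The means were 13.4 ± 0.978 CPM in RMCE-2, 0.514 ± 0.0012 in RMCE-1, 7.13 ± 1.01 in mir-11 KO and 1.49 ± 0.128 in Canton S (SD, n = 2 each). Behind the RMCE-1 mean stand 8 and 6 reads, so counting error limits the precision of its fold changes. RMCE-2 against RMCE-1 gave a log2 fold change of 4.69 (SE 0.23), or 25.8-fold, and RMCE-2 against mir-11 KO gave 0.91 (SE 0.18). The values against Canton S were 3.17 (SE 0.20) for RMCE-2 and -1.52 (SE 0.24) for RMCE-1. In the order RMCE-2, mir-11 KO, Canton S and RMCE-1, the first steps were 3.17 and 4.98 times the summed SDs of the neighbouring stocks. The last step, from Canton S to RMCE-1, was 0.974 CPM. It is not scaled by SD here, since the RMCE-1 SD of 0.0012 CPM leaves out the counting error of 8 and 6 reads.

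The germline partners bam and bgcn of tut had few reads, and mei-P26 was not called. bam, the differentiation switch of the male germline, had 1 to 8 reads per library and was not tested, and bgcn had 21 to 45 reads, or 1.23 to 2.22 CPM. mei-P26, the repressed target in germ cells, had 231 and 205 CPM in RMCE-2, 173 and 173 CPM in RMCE-1, 188 and 174 CPM in mir-11 KO and 209 and 189 CPM in Canton S. It was not called between RMCE-2 and RMCE-1 (log2 fold change 0.33 with SE 0.08, edgeR adjusted p = 0.116) or between mir-11 KO and Canton S (-0.14, SE 0.08, adjusted p = 0.4). The libraries of the compared stocks, 2 for each, did not overlap in either comparison. Those of mir-11 KO and Canton S came as close as 188 and 189 CPM. The testis markers that summed to 70.5 CPM in Canton S replicate 1 and 31.4 CPM in replicate 2 accompanied 1.58 and 1.40 CPM of tut. In RMCE-2, where tut was highest, they summed to 33.2 and 29.5 CPM, within the range of the other stocks.

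sturkopf (FBgn0035206) had the smallest spread of the 4, with 2.96-fold between its highest and lowest stock. It had 99.9 and 117 CPM in RMCE-2, 36.3 and 36.9 CPM in RMCE-1, 93.1 and 93.9 CPM in mir-11 KO and 47.0 and 51.8 CPM in Canton S. The levels thus fell into a high pair of stocks, RMCE-2 and mir-11 KO, and a low pair, RMCE-1 and Canton S, with no overlap between stocks. Means were 108 ± 12.0 CPM in RMCE-2, 36.6 ± 0.373 in RMCE-1, 93.5 ± 0.55 in mir-11 KO and 49.4 ± 3.39 in Canton S (SD, n = 2 each). RMCE-2 against RMCE-1 gave a log2 fold change of 1.57 (SE 0.09), and RMCE-1 against mir-11 KO gave -1.35 (SE 0.09). RMCE-2 was close to mir-11 KO, at 0.21 (SE 0.09), and the gap of 14.9 CPM between their means was 1.19 times their summed SDs. Against Canton S, RMCE-2 gave 1.13 (SE 0.09) and RMCE-1 gave -0.43 (SE 0.09). Fat body is rich in lipid droplets, and sturkopf differed by 1.01-fold between the RMCE-1 libraries, whose fat body sums were 66.5 and 9149 CPM. The part of fat body RNA in the sturkopf levels of the 4 stocks was not tested.

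CG32373 (FBgn0052373), a protein-coding gene to which no role is given here, ran against Map205, tut and sturkopf between RMCE-2 and RMCE-1. It had 1.76 and 1.56 CPM in RMCE-2, 36.5 and 26.7 CPM in RMCE-1, 21.2 and 21.2 CPM in mir-11 KO and 2.66 and 1.99 CPM in Canton S. RMCE-1 and mir-11 KO were high and RMCE-2 and Canton S low, and no libraries of different stocks overlapped. The means were 1.66 ± 0.143 CPM in RMCE-2, 31.6 ± 6.98 in RMCE-1, 21.2 ± 0.0224 in mir-11 KO and 2.33 ± 0.478 in Canton S (SD, n = 2 each), from 23 and 28 reads in RMCE-2 and 570 and 311 reads in RMCE-1. The log2 fold change of RMCE-2 against RMCE-1 was -4.25 (SE 0.22), a 19.0-fold difference, and that of RMCE-2 against mir-11 KO was -3.67 (SE 0.22). Within the high pair, RMCE-1 against mir-11 KO gave 0.58 (SE 0.18), and within the low pair RMCE-2 against Canton S gave -0.49 (SE 0.23). RMCE-1 against Canton S gave 3.76 (SE 0.21). The lowest neighbours in this order, Canton S and RMCE-2, differed by 0.664 CPM, or 1.07 times their summed SDs.

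**Figure D2:**
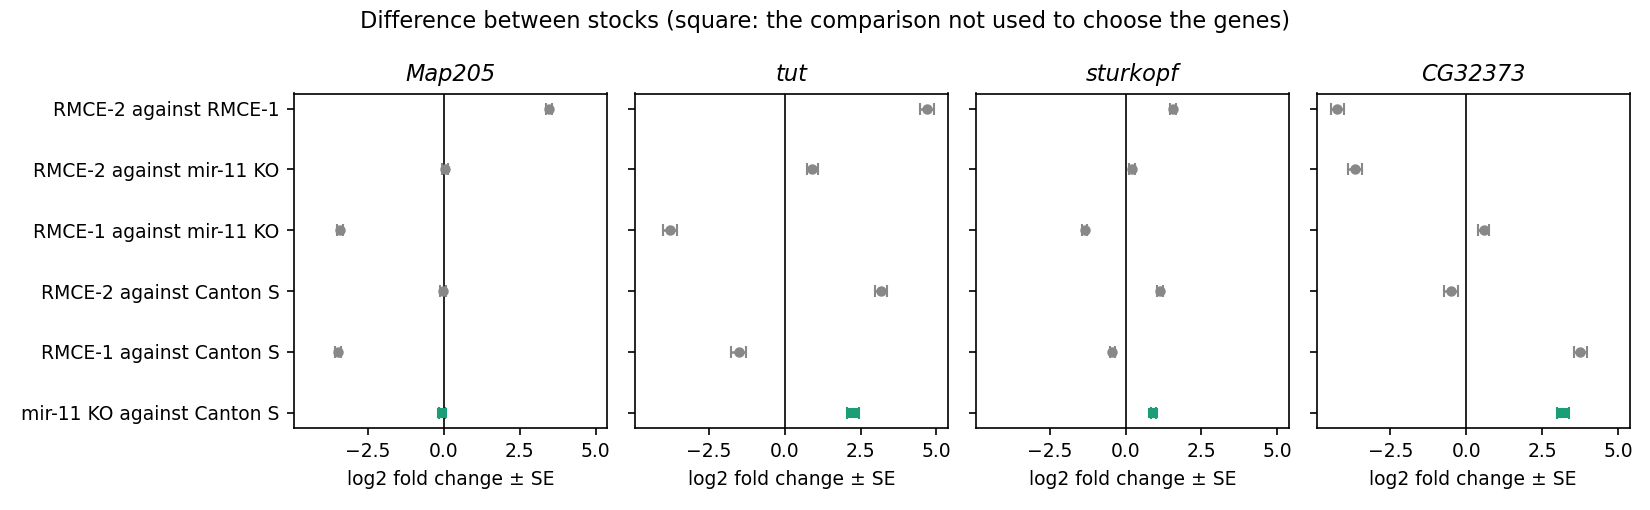
Log2 fold change ± SE (x axis) of each gene in the 6 comparisons of stocks, first stock over second, from one edgeR fit over 8 libraries. Grey circles are comparisons that hold an RMCE library, and green squares are mir-11 KO against Canton S. In mir-11 KO against Canton S Map205 sits at -0.06, with tut at 2.25, sturkopf at 0.92 and CG32373 at 3.18.

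The comparison that the choice of genes did not use, mir-11 KO against Canton S, showed tut, sturkopf and CG32373 higher in mir-11 KO and no call for Map205. Its SEs and p-values still draw on the spread of all 8 libraries, the RMCE libraries among them. tut was 4.77-fold higher (log2 fold change 2.25 with SE 0.19, edgeR adjusted p = 0.00269). CG32373 was 9.08-fold higher (3.18, SE 0.20, edgeR adjusted p = 0.000917), a difference already known from the earlier analysis. sturkopf was 1.89-fold higher (0.92, SE 0.09, edgeR adjusted p = 0.00378). For Map205 the log2 fold change was -0.06 (SE 0.09, edgeR adjusted p = 0.733) with overlapping libraries. Each of the 3 higher genes was called in all 16 alternative settings, at adjusted p up to 0.0325 for tut, 0.0459 for sturkopf and 0.0217 for CG32373.

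Counts of calls across all genes set the scale for these values. In that comparison 4.75% of the 11068 tested genes were called, 2.37% higher and 2.39% lower, and 3 of these 4 genes were called higher. The difference of CG32373 was known beforehand, and the genes were chosen from libraries of the same fit. The share among the 4 is therefore a description. Among genes called between RMCE-2 and RMCE-1 the share was larger than over all genes. With these 4 genes set aside, 59 of 182 genes (32.4%) called between RMCE-2 and RMCE-1 were also called between mir-11 KO and Canton S. The 2 comparisons share no library but come from one fit. Between RMCE-2 and RMCE-1 themselves 1.68% of the tested genes were called, 0.94% higher and 0.741% lower, and nothing is read from those shares for the 4 genes.

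Ordering the 8 libraries by tut and by sturkopf gave nearly the same profile, with RMCE-2 above mir-11 KO, Canton S and RMCE-1 for both. Pearson's r between their log2 CPM over the 8 libraries was 0.991, and Map205 gave 0.758 with tut and 0.737 with sturkopf. CG32373 gave -0.667 with Map205, -0.446 with tut and -0.38 with sturkopf. These r values describe 8 libraries that come from 4 stocks. The RMCE libraries among them were used to choose the genes, so the r values are partly set by that choice.

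All 4 genes lie on the third chromosome, where the mir-11 and mir-998 region also lies. In the Ensembl 115 annotation of BDGP6.54, a build that may differ from the one the reads were counted on, Map205 spans 32055279 to 32068441 on the minus strand of arm 3R. On arm 3L, sturkopf spans 1311719 to 1313377 and tut 8209577 to 8210743, both on the minus strand, and CG32373 spans 7650548 to 7759123 on the plus strand. sturkopf and tut are thus 6.896 Mb apart, and CG32373 and tut are 450.5 kb apart. Between RMCE-2 and RMCE-1, 2.58% of tested genes were called on 3L and 2.07% on 3R, against 1.07% on 2L, 1.05% on 2R and 1.31% on X. In mir-11 KO against Canton S the shares were 5.34% on 3L and 5.38% on 3R, against 4.49%, 3.76% and 4.09% on 2L, 2R and X.

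The annotated and tested genes next to each of the 4 in the order of their start positions, up to 5 on either side, were then read in the same fit. Map205 has tested genes on one side only, so there were 35 neighbours. Between RMCE-2 and RMCE-1, 5 of the 35 (14.3%) were called, against 1.68% of all tested genes. They were CG8012, CG7213 and Dscam4 beside tut, and Herc4 and Ctr9 beside sturkopf. In mir-11 KO against Canton S 2 of 35 (5.71%) were called, CG7213 and Herc4, against 4.75% of all tested genes. With 10 genes on either side the shares were 6 of 70 (8.57%) and 3 of 70 (4.29%), which added CG13685 and Snmp2 beside CG32373.

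**Figure D3:**
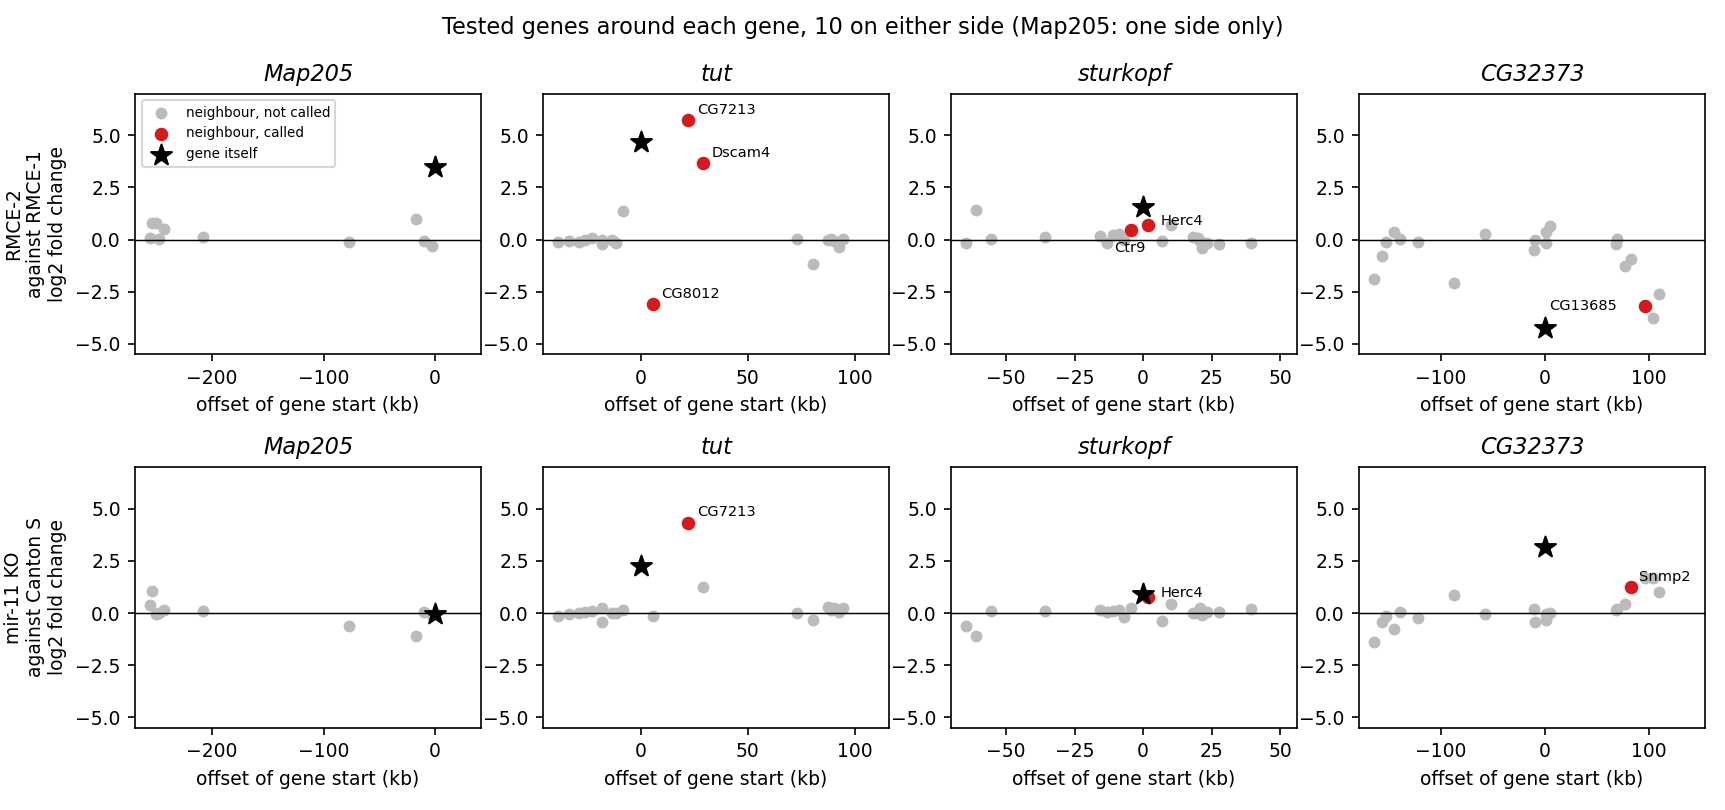
Log2 fold change (y axis) of the tested genes around each of the 4 genes, up to 10 on either side, against the offset of their starts in kb. The upper row shows RMCE-2 against RMCE-1 and the lower row mir-11 KO against Canton S, with stars for the 4 genes, red for called neighbours and grey for the others. Called neighbours lie beside tut, sturkopf and CG32373, and none lies beside Map205.

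Beside tut, the gene CG7213 on the same strand, 21.1 kb away, was high where tut was high and almost absent where it was low. CG7213 had 6.98 and 5.52 CPM in RMCE-2, 0.128 and 0.0858 CPM in RMCE-1, 2.62 and 2.85 CPM in mir-11 KO and 0.148 and 0.107 CPM in Canton S. Only 3 reads in RMCE-1 and 5 in Canton S were assigned to it over both libraries, so RMCE-2 and mir-11 KO lay above the other stocks in every library. RMCE-2 stood 55.8-fold above RMCE-1, with a counting interval of 18.8 to 273 (95%, counting error only). The edgeR adjusted p was 0.00226 for RMCE-2 against RMCE-1 (log2 fold change 5.74, SE 0.39) and 0.00248 for mir-11 KO against Canton S (4.33, SE 0.36). Both calls were made in all 16 alternative settings.

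Dscam4, a cell adhesion gene of the Dscam family on the opposite strand 27.9 kb from tut, followed the same order of stock means. It had 114 and 116 CPM in RMCE-2, 10.3 and 7.55 CPM in RMCE-1, 53.6 and 49.8 CPM in mir-11 KO and 30.9 and 12.4 CPM in Canton S. RMCE-2 lay above and RMCE-1 below all other libraries, and the Canton S libraries differed the most between themselves. The call of RMCE-2 against RMCE-1 (log2 fold change 3.68 with SE 0.46, edgeR adjusted p = 0.0319) was lost without any 1 of the RMCE-2, RMCE-1 or mir-11 KO libraries, at adjusted p up to 0.159. mir-11 KO against Canton S was not called (1.25, SE 0.41, edgeR adjusted p = 0.177). Dscam4 and CG7213 overlap by 1955 bp in the annotation with no exon in common, and the strand setting of the counting is not given, so their reads may not be fully separated.

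CG8012, 4.54 kb from tut on the opposite strand, ran against it. It had 0.153 and 0.558 CPM in RMCE-2, 3.53 and 2.92 CPM in RMCE-1, 1.44 and 1.19 CPM in mir-11 KO and 1.09 and 1.83 CPM in Canton S. RMCE-1 was highest and RMCE-2 lowest, and mir-11 KO and Canton S overlapped. The call (log2 fold change -3.09 with SE 0.55, edgeR adjusted p = 0.0497) was lost on leaving out any 1 of the 8 libraries. It was also lost in the fit on the 4 libraries compared (edgeR adjusted p = 0.193), and so rests on the full set.

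Beside sturkopf, Herc4, which encodes a ubiquitin ligase of the HECT family, starts 318 bp away on the opposite strand and had the same high and low pairs of stocks. It had 184 and 185 CPM in RMCE-2, 109.7 and 116 CPM in RMCE-1, 175 and 184 CPM in mir-11 KO and 105 and 105 CPM in Canton S. The 4 libraries of RMCE-2 and mir-11 KO all lay above the other 4. Its log2 fold change was 0.71 (SE 0.06, edgeR adjusted p = 0.00501) for RMCE-2 against RMCE-1 and 0.77 (SE 0.06, edgeR adjusted p = 0.00186) for mir-11 KO against Canton S. The first of these calls was made in 15 of 16 alternatives, all but the fit on the 4 libraries compared (adjusted p = 0.0872), and the second in all 16. RMCE-1 against mir-11 KO was also called lower for Herc4, among 0.352% of all tested genes called there (-0.67, edgeR adjusted p = 0.00929), and this call was lost without either mir-11 KO library.

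Ctr9, on the other side of sturkopf, encodes a subunit of the Paf1 complex that travels with RNA polymerase II. Its exons overlap those of sturkopf by 87 bp on the opposite strand, so a small part of their reads cannot be told apart without the strand setting. It had 166 and 159 CPM in RMCE-2, 118 and 115 CPM in RMCE-1, 164 and 161 CPM in mir-11 KO and 139 and 134 CPM in Canton S. RMCE-2 and mir-11 KO overlapped at the top and RMCE-1 was lowest. RMCE-2 against RMCE-1 gave a log2 fold change of 0.48 (with SE 0.06 and edgeR adjusted p = 0.0169), lost without either RMCE-2 or either mir-11 KO library at adjusted p up to 0.079. The call was also lost without RMCE-1 replicate 2 and Canton S replicate 1 together, and in the fit on the 4 libraries compared (edgeR adjusted p = 0.156).

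**Figure D4:**
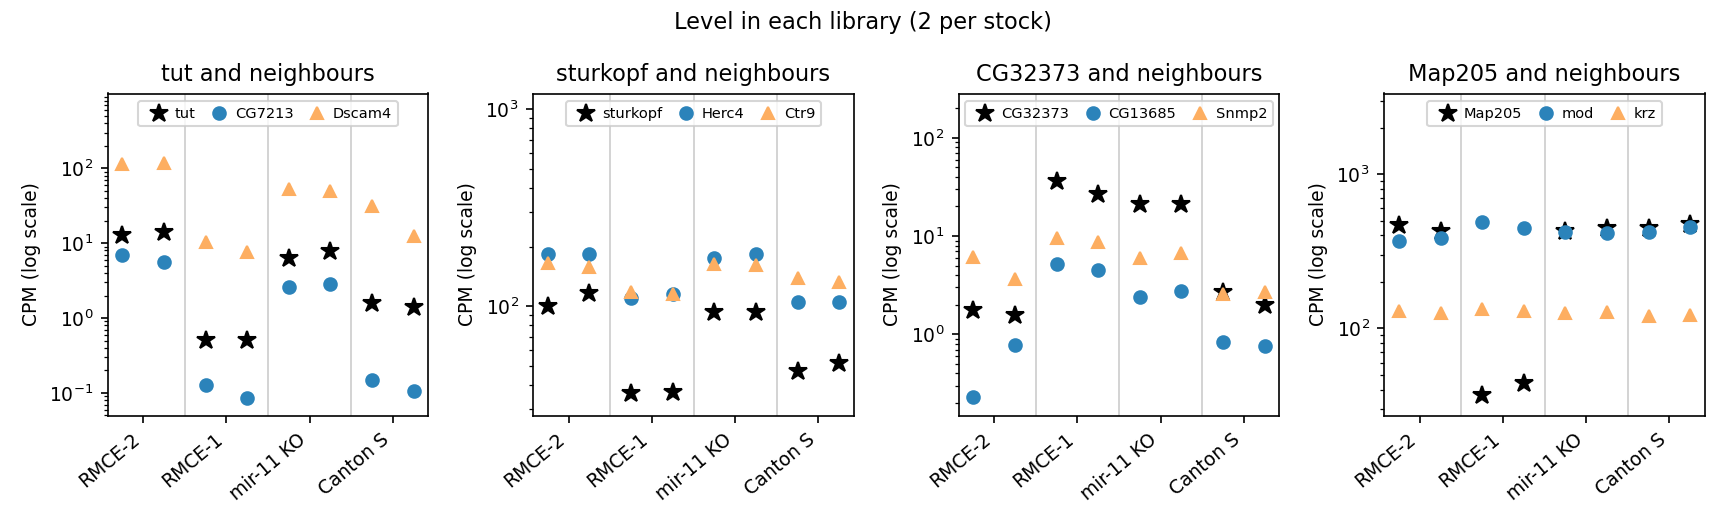
Level in CPM (log axis) of the 4 genes and of 2 neighbours of each in every library, 2 libraries per stock. Dscam4 and CG7213 follow tut, and Herc4 and Ctr9 follow sturkopf over a narrower range, whereas mod and krz, beside Map205, were not called between RMCE-2 and RMCE-1 (log2 fold changes -0.32 and -0.05).

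CG32373 spans 108576 bp, with 2217 bp of exons, and 9 other annotated genes overlap that span, none sharing an exon with it. All 9 were tested. CG13685, CG7409, Mcad and PGRP-SD lie inside the span on the same strand. Reads of unspliced CG32373 RNA, if present, cannot be told apart from theirs. Without the strand setting the same may hold for Ank2, Snmp2, CG7492, CG7457 and CG8492, which overlap the span on the opposite strand. Ank2 overlaps 63007 bp of it and gave 0.63 (SE 0.12, edgeR adjusted p = 0.0587) for RMCE-2 against RMCE-1. CG7492, CG7457, CG8492 and Snmp2 gave -0.18, 0.03, -1.28 and -0.93 there, and none of these genes was called. Between RMCE-2 and RMCE-1 CG7409, with 1 to 31 reads per library, gave -3.77 (SE 0.74, edgeR adjusted p = 0.0626). Mcad gave -0.2 (SE 0.08) and PGRP-SD 0.37 (SE 0.52) there, neither called. CG13685, on the same strand, had 0.230 and 0.781 CPM in RMCE-2, 5.19 and 4.54 CPM in RMCE-1, 2.41 and 2.73 CPM in mir-11 KO and 0.839 and 0.752 CPM in Canton S. It thus had the stock order of CG32373 except that RMCE-2 and Canton S overlapped. RMCE-2 against RMCE-1 was called lower (log2 fold change -3.19 with SE 0.48, edgeR adjusted p = 0.0281), and 6 of the 8 fits that left out a library lost the call, at adjusted p up to 0.0847. The call was kept without RMCE-1 replicate 1 and without RMCE-2 replicate 2. It was lost in the fit on the 4 libraries compared (edgeR adjusted p = 0.167).

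Snmp2, of the sensory neuron membrane protein family, lies on the strand opposite CG32373. It had 6.06 and 3.63 CPM in RMCE-2, 9.55 and 8.75 CPM in RMCE-1, 5.94 and 6.65 CPM in mir-11 KO and 2.57 and 2.69 CPM in Canton S. RMCE-1 was highest and Canton S lowest, and RMCE-2 overlapped mir-11 KO. mir-11 KO was called higher than Canton S (log2 fold change 1.26 with SE 0.26, edgeR adjusted p = 0.0433), and this call was lost without either Canton S or either mir-11 KO library, at adjusted p up to 0.243. Of the 10 neighbours of CG32373 within 5 starts on either side, which leave out Snmp2 and CG13685, edgeR called none between RMCE-2 and RMCE-1, against 4 at an unadjusted p under 0.05 and 2 with DESeq2.

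Around Map205 edgeR called none of the 5 tested neighbours between RMCE-2 and RMCE-1, against 1 at an unadjusted p under 0.05 and 1 with DESeq2. mod, which encodes a nucleolar protein and ends 304 bp from Map205 on the opposite strand, had 367 and 385 CPM in RMCE-2, 488 and 450 CPM in RMCE-1, 420 and 412 CPM in mir-11 KO and 424 and 453 CPM in Canton S. It was highest where Map205 was lowest but was not called between RMCE-2 and RMCE-1 (log2 fold change -0.32 with SE 0.07, edgeR adjusted p = 0.072). krz, a gene for a non-visual arrestin 3.29 kb away, averaged 128 ± 3.62 CPM in RMCE-2 and 132 ± 2.98 CPM in RMCE-1 (SD, n = 2 each). Its log2 fold change was -0.05 (SE 0.05, edgeR adjusted p = 0.725).

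The tested genes with the most similar profiles were found by the Euclidean distance between log2 CPM profiles over the 8 libraries, each centred on its own mean. The prior count of 2 damps the log2 CPM of genes with few reads, so their distances partly reflect it. Closest to tut were Dscam4 (distance 1.44, r 0.967), CG7213 (1.8, r 0.965) and CG34461 (2.52, r 0.863), which starts 116 kb from it. CG34461 had 3.30 and 3.18 CPM in RMCE-2, 0.256 and 0.171 CPM in RMCE-1, 0.481 and 0.713 CPM in mir-11 KO and 0.148 and 0.323 CPM in Canton S. All 3 lie on 3L, and CG34461 was high in RMCE-2 alone.

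Closest to sturkopf were lncRNA:CR43151 (distance 0.697), the dynein intermediate chain gene Dic61B (0.806) and CG16985 (0.822), which start 1150, 1160 and 1290 kb from it on 3L. CG16985 had 7.13 and 6.42 CPM in RMCE-2, 3.59 and 3.43 CPM in RMCE-1, 7.44 and 6.71 CPM in mir-11 KO and 4.69 and 4.95 CPM in Canton S. Its libraries split into the same high and low pairs of stocks as sturkopf. lncRNA:CR43151 rested on 24 reads in RMCE-2, 6 in RMCE-1, 29 in mir-11 KO and 11 in Canton S over both libraries.

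Closest to CG32373 were CG13065 (distance 0.854), snoRNA:Psi28S-1837a (1.02), a guide RNA gene, both on 3L, and CG31436 (1.68) on 3R. The snoRNA averaged 1.59 ± 0.192 CPM in RMCE-2, 29.9 ± 2.22 CPM in RMCE-1, 16.9 ± 1.37 CPM in mir-11 KO and 1.87 ± 0.695 CPM in Canton S (SD, n = 2 each). CG31436 averaged 5.25 ± 0.488 CPM in RMCE-2, 37.9 ± 11.1 in RMCE-1, 32.8 ± 0.721 in mir-11 KO and 5.84 ± 0.957 in Canton S. CG13065 rested on 1 read in RMCE-2, 47 in RMCE-1, 51 in mir-11 KO and 2 in Canton S over both libraries. Copies of a snoRNA can share reads, so the level of a single copy is uncertain.

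For Map205 the closest genes were CG31821 on 2L (distance 1.82), CG11668 on 3R (2.12) and the rhodopsin gene Rh7 on 3L (2.25), none of them near it. CG11668 had 14.0 and 14.8 CPM in RMCE-2, 4.81 and 3.69 CPM in RMCE-1, 18.0 and 18.5 CPM in mir-11 KO and 12.0 and 16.0 CPM in Canton S. It was low in RMCE-1 by less than Map205 was. CG31821 had 62 reads in RMCE-2 and 1 read in RMCE-1 over both libraries. Rh7 had 18 reads in RMCE-2, 2 in RMCE-1, 13 in mir-11 KO and 35 in Canton S.

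Genes of the pathways around Map205 were read from 2 lists. Polo itself had 222 and 206 CPM in RMCE-2, 214 and 193 CPM in RMCE-1, 226 and 226 CPM in mir-11 KO and 207 and 203 CPM in Canton S. The polo transcript thus overlapped between RMCE-2 and RMCE-1 (log2 fold change 0.08 with SE 0.07, edgeR adjusted p = 0.66) while Map205 differed 11.1-fold. Of 20 Polo and mitotic partner genes, 1 was called higher and 0 lower between RMCE-2 and RMCE-1, with a median log2 fold change of -0.025 against -0.014 over all tested genes. Over all tested genes 0.94% were called higher and 0.741% lower. The called gene was the mitotic kinase gene aurB, at 40.8 ± 0.438 CPM in RMCE-2 and 29.4 ± 2.29 CPM in RMCE-1 (log2 fold change 0.47 with SE 0.08, edgeR adjusted p = 0.0371). That call was lost in 7 of the 8 fits that left out a library, all but the fit without RMCE-1 replicate 1, at adjusted p up to 0.153.

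In mir-11 KO against Canton S 3 of the 20 mitotic genes were called higher and 0 lower, with a median of 0.21 against 0.01 over all tested genes. The shares over all tested genes were 2.37% higher and 2.39% lower. In the same comparison the median log2 fold change was -2.3 for the 8 salivary gland markers, -2.2 for the 8 fat body markers, -0.49 for the 9 hemocyte markers and 0.11 for the 13 eye disc markers. Among the hemocyte markers Pxn was called lower (-0.87, SE 0.16, edgeR adjusted p = 0.0319) and NimC1 higher (1.49, SE 0.28, edgeR adjusted p = 0.0332). Each of these 2 calls was lost in 5 of the 8 fits that left out a library, that of Pxn without Canton S replicate 2, that of NimC1 without Canton S replicate 1, and both without any 1 of the mir-11 KO or RMCE-2 libraries, at adjusted p up to 0.203 and 0.187. The part of these tissues in the values of tut, sturkopf, CG32373 and the lists in this comparison was not tested. The Cdc25 phosphatase gene stg averaged 284 ± 7.17 CPM in mir-11 KO and 196.5 ± 14.2 CPM in the Canton S libraries (log2 fold change 0.53 with SE 0.08, edgeR adjusted p = 0.0148). feo, a gene of the spindle midzone, averaged 119.8 ± 4.84 CPM in mir-11 KO and 85.5 ± 1.02 CPM in Canton S (0.49, SE 0.07, edgeR adjusted p = 0.0111), and aurB averaged 38.0 ± 1.17 CPM in mir-11 KO and 29.1 ± 0.743 CPM in Canton S discs (0.38, SE 0.08, edgeR adjusted p = 0.0396). The 3 calls were each lost without Canton S replicate 1 or either mir-11 KO library, at adjusted p up to 0.128, 0.108 and 0.241 for stg, feo and aurB, and those of feo and aurB also without Canton S replicate 2. aurB was lost as well without either RMCE-2 library and with DESeq2 (adjusted p = 0.0876).

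Of 14 tested genes for other microtubule-associated proteins, edgeR called none between RMCE-2 and RMCE-1, against 2 at an unadjusted p under 0.05 and 1 with DESeq2, with a median log2 fold change of 0.0061. In mir-11 KO against Canton S, 2.37% of all tested genes were called higher. The spindle gene mars was called higher in mir-11 KO, at 49.1 ± 0.486 CPM against 32.4 ± 2.73 CPM in the Canton S libraries (log2 fold change 0.60 with SE 0.13, edgeR adjusted p = 0.0493). It was the single call of the 14, which had a median of -0.037, and it was lost when a Canton S, mir-11 KO or RMCE-1 library was left out, at adjusted p up to 0.253.

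Among 7 tested genes of the bam, bgcn and germline RNA regulator list, pum, a translational repressor gene, was called between RMCE-2 and RMCE-1. pum averaged 381 ± 2.31 CPM in RMCE-2 and 277 ± 12.5 CPM in RMCE-1 (log2 fold change 0.46 with SE 0.07, edgeR adjusted p = 0.0298), a call lost on leaving out any 1 of the 8 libraries, at adjusted p up to 0.129. The list's median was 0.025 there, and 1.68% of all tested genes were called. Of the 7, 2 had an unadjusted p under 0.05 in that comparison and DESeq2 called 2. Between mir-11 KO and Canton S edgeR called none of the 7, against 1 at an unadjusted p under 0.05 and 1 with DESeq2, with a median of -0.14.

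Among 13 tested lipid droplet and triacylglycerol genes, edgeR called none between RMCE-2 and RMCE-1, where sturkopf differed 2.96-fold, against 2 at an unadjusted p under 0.05 and 0 with DESeq2. Their median log2 fold change was -0.013. In mir-11 KO against Canton S 1 was called higher and 1 lower, with a median of -0.10, against 2.37% and 2.39% of all tested genes called. The fatty acid desaturase gene Desat1 averaged 318 ± 7.46 CPM in mir-11 KO and 234 ± 11.7 CPM in the Canton S libraries (log2 fold change 0.44 with SE 0.07, edgeR adjusted p = 0.0166). mdy, whose enzyme makes triacylglycerol, averaged 53.7 ± 2.3 CPM in mir-11 KO against 73.3 ± 0.225 CPM in Canton S discs (-0.45, SE 0.09, edgeR adjusted p = 0.0392). Both calls were lost when a Canton S or mir-11 KO library was left out, at adjusted p up to 0.147 for Desat1 and 0.248 for mdy.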

How the data were processed

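RNA was sequenced from 8 libraries of eye discs, 2 per stock. The deposited values are raw read counts per gene, with no scaling by the authors, per the labels. Total RNA was depleted of ribosomal RNA and made into directional libraries read as single ends of 50 bp, per the labels' protocols. The submitters' processing notes name featureCounts, Subread, TopHat2, FastQC and CASAVA 1.8.2. Build, annotation and strand setting are not given in the sources here. Of 15682 identifiers 15002 matched the Ensembl 115 annotation and 680 did not.

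These counts were scaled by TMM (factors from 0.9711 to 1.036) and filtered with filterByExpr, which kept 11068 genes and dropped 4614. A model with 1 mean for each stock was fitted to all 8 libraries in edgeR 4.0.16 (R 4.3.3) by robust quasi-likelihood, leaving 4 residual degrees of freedom, and p-values were Benjamini-Hochberg adjusted across the tested genes. A call is an adjusted p under 0.05. The common coefficient of variation was 20.6%. Replicates differed by a chi-square per degree of freedom of 9.5 to 50.0, so each counted as a separate library. Log2 CPM profiles used a prior count of 2. PCR reads are not independent molecules, so intervals cover counting error only.

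The genes and lists were chosen with earlier results of these data known. Named were the 4 genes, called or overlapping neighbours, the 3 closest profiles per gene, and up to 4 called genes per list by adjusted p. Of 152 listed symbols 10 had no match. DESeq2 1.42.0, other scalings and filters, fewer libraries and a replicate term were run as alternatives. The steps were tested on simulated data.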

Additional observations from a re-analysis of the deposited data

How the results depend on the processing

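For mir-11 KO against Canton S, the 4 genes kept their direction and their side of the threshold in the 16 alternative settings, with log2 fold changes from 2.10 to 2.39 for tut, 0.835 to 0.988 for sturkopf, 2.99 to 3.41 for CG32373 and -0.118 to -0.0305 for Map205. Of the 20 values given with no test, over 320 alternative values, 3 moved by more than the SD between replicates (sturkopf in RMCE-1 against mir-11 KO to -1.41 with library totals alone and -1.33 without RMCE-1 replicate 1, both within the SE of 0.09, and CG32373 in RMCE-1 against Canton S to 4.19 without RMCE-1 replicate 2 and Canton S replicate 1), and 3 values of Map205 near 0 changed sign.

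Genome-wide counts of calls depended on the setting, and the cause was not tested beyond the fewer samples of some fits. The 186 calls of RMCE-2 against RMCE-1 were 420 with DESeq2, 17 with only the 4 libraries compared, 68 without RMCE-1 replicate 2 and Canton S replicate 1 together, and 19 to 375 on leaving out 1 library (19 without RMCE-2 replicate 2, 30 without RMCE-2 replicate 1, 36 and 37 without mir-11 KO replicates 1 and 2, 100 and 87 without Canton S replicates 1 and 2, 375 without RMCE-1 replicate 1 and 100 without replicate 2). The 526 calls of mir-11 KO against Canton S were 1139 with the 4 libraries, 341 without that pair and 65 to 768 on leaving out 1 library (219 and 177 without Canton S replicates 1 and 2, 80 and 65 without mir-11 KO replicates 1 and 2). The 5 neighbours called between RMCE-2 and RMCE-1 were 8 with DESeq2, 3 with no filter, 2 with the 4 libraries, 3 without the pair and 2 to 5 on leaving out 1 library. The 2 called between mir-11 KO and Canton S were 4 with the 4 libraries and 2 to 4 on leaving out 1. Calls in the 4 pathway lists were 6 between mir-11 KO and Canton S, against 11 with the 4 libraries, 2 without the pair and 0 to 6 on leaving out 1. They were 2 between RMCE-2 and RMCE-1, against 4 with DESeq2, 0 with the 4 libraries, 0 without the pair and 0 to 2 on leaving out 1.

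Whether libraries with the same replicate number were prepared together is not given in the sources here. The correlation of within-stock differences over 8174 genes was 0.371 for mir-11 KO with Canton S. For the other pairs of stocks it ran from -0.349 to -0.133. With that number as a replicate block, the log2 fold changes of mir-11 KO against Canton S were 2.25 for tut, 0.923 for sturkopf, 3.2 for CG32373 and -0.0639 for Map205 (edgeR adjusted p = 0.0108, 0.00931, 0.0048 and 0.763). Under the block mir-11 KO against Canton S had 318 calls, with 2 neighbours and 3 list genes among them, and RMCE-2 against RMCE-1 had 55 calls, with 3 neighbours and 0 list genes.

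Depth limits tut and CG7213 in RMCE-1, with 14 and 3 reads over both libraries. By Pearson's r in place of distance, the 3 closest profiles kept CG13065 and CG31436 for CG32373 and Dscam4 for tut, and none for Map205 or sturkopf.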
